A study of Mus musculus with 12 samples.

Results

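This account compares 6 RNA-seq libraries of cultured mouse muscle cells that received a vector for human SMN with 3 libraries of untreated control cells, out of 12 libraries in the series. The 6 SMN libraries were those titled Smn1OE (unmutated human SMN, n = 3) and Smn1OE_K186R (human SMN with the K186R point mutation, n = 3), and the 3 controls were those titled WT. The cells are fibroadipogenic progenitors (FAPs), a mesenchymal population of the muscle interstitium, sorted from limb muscle by surface Sca1 and the absence of lineage markers and Vcam, and grown in alpha-MEM with 20% serum. WT cells came from wild-type mice and received ethanol. Both SMN groups came from Bap1 f/f mice and also carried the Bap1 deletion treatment, so that they differ from WT by the genotype, by 1 µM 4-hydroxytamoxifen with a change of medium after 24 hours, and by the SMN vector. The source label names the limb mesenchyme driver Prrx1Cre for the deletion, while the treatment text names the tamoxifen-dependent Rosa-CreER; both are given here as they stand. The remaining group, Bap1KO (n = 3), had the deletion treatment without an SMN vector and is used here for side-by-side levels only; its libraries share media batches A, B and C with WT and none with the SMN groups, so that a Bap1KO level set beside them is compared with SMN across batches. Human SMN was cloned into pcDNA4-HisMAX and pLVX vectors, and which of them the cells received is not given in the sources used here. No group with an empty vector, and none with SMN but without the deletion treatment, is among the 12 libraries, and how many animals or cultures the replicates represent is not given, so that p-values measure the spread between these libraries, which may be technical.

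The labels place the 3 WT libraries in 3 media batches (A, B and C) and the 6 SMN libraries in 3 others (D, E and F), 1 library of each SMN group in each. No media batch held both WT and SMN libraries, so no within-batch value of this comparison exists. Media batch, tamoxifen, Bap1 genotype, vector and SMN itself cannot be told apart here. A further difference ran exactly along the groups. Xist, which silences an X chromosome in female cells, stood between 200 and 264 CPM (counts scaled by library size) in the WT libraries and between 0 and 0.113 CPM in the SMN libraries. From the Y chromosome, WT libraries held 0 reads of the genes tested, whereas SMN libraries held 57.9 to 69.7 CPM of Eif2s3y, 27.0 to 65.3 of Ddx3y, 12.7 to 19.1 of Kdm5d and 11.1 to 18.2 of Uty. The sex that these transcripts mark therefore cannot be told apart from the treatment either, and the results below are limited to autosomal genes, which does not remove effects of sex on them.

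Reads counted in genes numbered 67283432 to 68216089 in the WT libraries and 51198342 to 66014391 in the SMN libraries. Reads aligned outside annotated genes made up 3.29 ± 0.348% of the SMN libraries (SD, n = 6) and 2.51 ± 0.1249% of WT (n = 3), and mitochondrial genes took 2.00 ± 0.0914% against 1.38 ± 0.0951% of gene counts. In both measures every SMN library lay above every WT library (exact permutation test, 2-sided, p = 0.0238, the smallest that 6 against 3 libraries allow, also after adjustment over the 5 library measures compared). That test counts the 6 SMN libraries as separate, although the 2 SMN groups share media batches D, E and F. With the media batch as the unit, so small a p could not be reached. Both shares moved with the group, and their part in the results below was not tested.

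FAPs support muscle by secreting matrix, growth factors and immune mediators, and can turn into fibroblasts or fat cells. SMN is the core of the complex that loads Sm proteins onto the small nuclear RNAs of the spliceosome, and its loss in motor neurons causes spinal muscular atrophy. BAP1 is a deubiquitinase that removes ubiquitin from histone H2A together with ASXL proteins. The study asked which genes lie downstream of Bap1 and Smn in FAPs, and its title names a secreted granzyme.

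Smn1 counts carried the vector's signal. Smn1 stood at 34.8, 34.3 and 31.6 CPM in the 3 WT libraries and between 3688 and 5593 CPM, median 4074, in the 6 SMN libraries, a log2 fold change of 7.01 ± 0.16 (SE; edgeR quasi-likelihood test, adjusted p = 7.91e-11). The groups lay far apart, and Bap1KO, without a vector, averaged 32.9 CPM. These are counts assigned to the mouse gene, and reads of human SMN that aligned there cannot be told apart from mouse transcripts. Bap1 counts in the SMN groups did not fall below WT beyond the test's threshold. Bap1 stood at 49.7, 49.7 and 52.0 CPM in WT and between 41.7 and 50.04 CPM, median 47.4, in the SMN libraries (log2 fold change −0.10 ± 0.06, adjusted p = 0.173). The SMN and WT libraries overlapped. Bap1KO averaged 40.3 CPM, below every WT library, given without a test. Whether the counted exons include the deleted ones is not given in the sources used here, so this gene-level count does not check the deletion.

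Over all 16034 autosomal genes tested, 9078 differed between the SMN groups and WT at an adjusted p under 0.05, which is 56.6% of them; 4243 (26.5%) rose and 4835 (30.2%) fell. Among these, 3220 (20.1%) changed at least 2-fold, 1371 (8.55%) upward and 1849 (11.5%) downward. Counts for gene groups below are to be read against these shares; the lists of nerve and synapse ligands (61.4% called), glycolysis (60%), BAP1 partners (60%), cytokines (58.8%), imprinted genes (57.7%), the SMN complex (57.1%) and Hox genes (51.4%) were near the background. At an unadjusted p under 0.05 the share was 61.6%, and in 51.7% of genes the 6 SMN libraries all lay on one side of the 3 WT libraries (23.9% above, 27.7% below). The median log2 fold change over all autosomal genes was −0.02. Each SMN group on its own differed from WT at 8081 (Smn1OE) and 8084 (Smn1OE_K186R) genes, each 50.4% of those tested; both counts use the same 3 WT libraries. Between the SMN groups 0 genes passed the edgeR test, 374 had an unadjusted p under 0.05 (2.33%), and 0 passed with DESeq2 or limma-voom. The edgeR and DESeq2 fits did not pair these groups by their shared media batches, whereas limma-voom took the batch as a random effect.

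**Figure D1:**
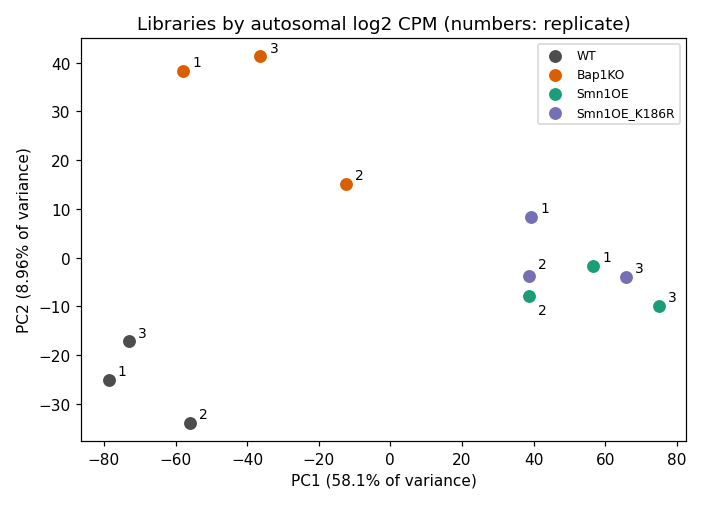
Positions of the 12 libraries on the first and second principal components of autosomal log2 CPM, coloured by group and numbered by replicate. The WT libraries lie at −78.7, −55.9 and −73.1 on the first component, which holds 58.1% of the variance, and the 6 SMN libraries lie between 38.8 and 74.9; the Bap1KO libraries lie between −57.9 and −12.3, replicate 1 within the WT range.

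The first principal component put WT and SMN libraries at opposite ends, and Smn1OE and Smn1OE_K186R libraries were mixed. The Bap1KO libraries lay at −57.9, −12.3 and −36.3; replicate 1 was within the WT range, and replicates 2 and 3 were between WT and the SMN libraries. The libraries farthest from WT were both from media batch F, Smn1OE replicate 3 at 74.9 and Smn1OE_K186R replicate 3 at 65.7.

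**Figure D2:**
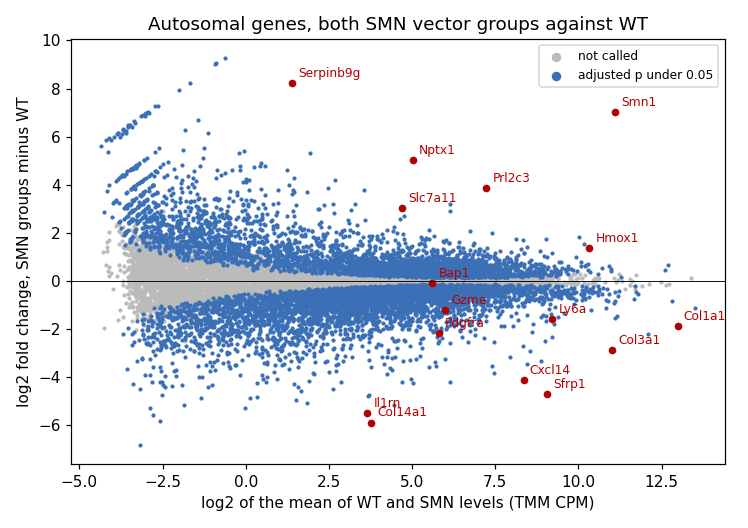
Each point is an autosomal gene tested, with its mean level on the horizontal axis and its log2 fold change (SMN groups minus WT) on the vertical axis; blue marks an adjusted p under 0.05, red the genes labelled by name. Smn1 stands alone at high level with a log2 fold change of 7.01, collagen genes such as Col1a1 and Col3a1 lie below 0 at the highest levels, and the slanted lines at the upper left include genes with 0 reads in all WT libraries.

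Genes that mark FAPs and fibroblasts were mostly lower in the SMN libraries. Of 29 autosomal members tested, 21 fell and 2 rose, with a median log2 fold change of −1.01. Pdgfra, the receptor used to identify FAPs, stood at 91.0, 75.8 and 106 CPM in WT and between 13.9 and 29.1 CPM, median 20.1, in the SMN libraries (log2 fold change −2.16 ± 0.19, adjusted p = 4.34e-06). The 6 SMN libraries all lay below the 3 WT libraries. Ly6a, which encodes the sorting marker Sca1, stood at 929, 898 and 839 CPM in WT and between 198 and 418 CPM in the SMN libraries (−1.58 ± 0.17, adjusted p = 2.04e-05). Both markers thus remained detected in every library. Dcn, the collagen-binding proteoglycan decorin, fell from 409, 218 and 271 CPM to between 24.6 and 90.1 CPM (−2.53). Pi16, a marker of the universal fibroblast state, fell from 3.63, 1.801 and 2.74 CPM to between 0.0757 and 0.283 CPM (−4.07). Lum, the keratan sulphate proteoglycan lumican (−4.41), and Fap, the surface protease fibroblast activation protein (−3.55), fell as well. In these bulk libraries, fewer cells of a type and less RNA per cell cannot be told apart. Bap1KO averaged 33.8 CPM of Pdgfra and 718 CPM of Ly6a.

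Markers of lymphoid, macrophage, endothelial and Schwann cells were low in both groups, and the myogenic sum was higher in the SMN libraries. T and NK cell markers summed to 0.480 to 0.748 CPM in WT and 0.291 to 0.606 CPM in the SMN libraries, with Cd3e, Cd3g, Ncr1 and Prf1 at 0. Macrophage and leukocyte markers summed to 26.7 to 32.8 CPM in WT and 22.9 to 31.9 CPM in SMN. Of 7 tested, 3 rose and 2 fell (Cd14 and Lyz2). Among the risers was the lysosomal Cd68, from 2.37, 4.01 and 2.97 to between 7.39 and 12.2 CPM. The other risers, Ptprc and Cx3cr1, were too low to pass the low-count filter on the WT libraries alone. The count of rises is therefore no measure of these markers. Endothelial markers summed to 5.86 to 7.00 against 4.31 to 5.71 CPM, and Schwann cell markers to 9.91 to 15.6 against 5.92 to 10.8 CPM. Most of the endothelial sum in WT was Tek, which fell from 4.96, 4.21 and 5.65 to between 0.865 and 1.76 CPM. Of 6 endothelial markers tested 2 rose, Esam and Kdr, and 1 fell, Tek. The lower endothelial sum is therefore no measure of the other endothelial markers. All these sums are small beside the level of Ly6a, but in the SMN libraries the macrophage and leukocyte sum was about as high as Pdgfra. Pericyte markers summed to 103 to 140 against 112 to 226 CPM, with Higd1b at 0. Most of that sum was Cspg4, which was not called, and Mcam. Of 6 pericyte markers tested 1 rose, Mcam (0.95), and 2 fell. Epithelial markers summed to 69.8 to 93.0 against 60.7 to 103 CPM, with Krt14 at 0, and most of that sum was Krt19, which was not called. In the SMN libraries the pericyte and epithelial sums were both above Pdgfra. Myogenic markers summed to 108 to 155 CPM in WT and 267 to 598 CPM in SMN. That sum was nearly all Acta1, skeletal muscle actin, which rose from 102, 150 and 138 to between 265 and 596 CPM (1.72), while the early myogenic factor Myf5 and the fusion gene Mymx were at 0. The part of these markers in the other results was not tested.

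Extracellular matrix genes made up the largest losses by level. Of 25 autosomal collagen chain genes tested, 18 fell and 3 rose (median log2 fold change −1.33). Col1a1, a chain of fibrillar collagen I, stood at 13323, 10399 and 14315 CPM in WT and between 2656 and 4447 CPM, median 3421, in the SMN libraries (−1.87 ± 0.18, adjusted p = 8.15e-06). Its partner Col1a2 fell from 7697, 5423 and 8550 CPM to between 937 and 2020 CPM (−2.23), and Col3a1, collagen III, from 4075, 2171 and 4652 CPM to between 327 and 699 CPM (−2.87). In all 3 genes replicate 2 was the lowest WT library. The steepest fall among genes of at least 10 CPM was that of Col14a1, a fibril-associated collagen, from 30.8, 9.51 and 40.1 CPM to between 0.0753 and 0.842 CPM (−5.89 ± 0.69, adjusted p = 2.79e-05). Col6a2, of the beaded-filament collagen VI that FAPs make, fell from 554, 307 and 467 to between 19.4 and 88.8 CPM (−3.15). Col15a1, a basement-membrane-zone collagen, fell by 3.37 on the log2 scale. The basement membrane chain Col4a1 went the other way, from 1266, 1636 and 1653 CPM to between 2066 and 2629 CPM (0.62 ± 0.12, adjusted p = 0.000911). Bap1KO averaged 9441 CPM of Col1a1 and 19.5 CPM of Col14a1, each within or near the WT range.

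Of 38 matrix glycoprotein and proteoglycan genes tested, 30 fell and 3 rose (median −1.67). The faller Omd was too low in the SMN libraries to pass the low-count filter there. Fn1, the adhesive glycoprotein fibronectin, stood at 15372, 12701 and 19427 CPM in WT and between 4655 and 10193 CPM in SMN (−1.13 ± 0.24, adjusted p = 0.0019). Sparc, a collagen-binding matricellular protein, fell from 9420, 8335 and 9853 to between 4700 and 5589 CPM (−0.84). Thbs4, a thrombospondin of tendon and muscle, fell from 81.0, 32.9 and 63.7 to between 1.15 and 6.59 CPM (−4.07). Outside this list, the secreted bone and inflammation protein Spp1 fell from 2887, 3276 and 3921 to between 501 and 1830 CPM (−1.46), and its Bap1KO mean, 964 CPM, lay within the SMN range. Abi3bp (−4.81) and Cilp (−4.48), both matrix proteins of connective tissue, were also among the 12 steepest falls.

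Genes that assemble elastic fibres and crosslink collagen fell in 24 of 27 cases, and 1 rose (median −0.96). Mfap2, a microfibril protein, stood at 36.8, 26.9 and 29.0 CPM in WT and between 2.63 and 5.27 CPM in SMN (−3.17). P4ha3, a collagen prolyl hydroxylase, fell from 70.8, 58.4 and 71.1 to between 9.07 and 17.1 CPM (−2.37). Mfap4 (−3.35), a microfibril-associated protein, and Eln (−4.85, at low counts), elastin itself, fell as well. Matrix proteases and their inhibitors were more divided, with 16 of 31 falling and 7 rising (median −0.38). The riser Mmp12 was too low in WT, and the faller Adamts16 in the SMN libraries, to pass the low-count filter there. Adamts5, an aggrecan-cleaving protease, fell from 206, 161 and 214 to between 20.9 and 61.1 CPM (−2.26), and Adamts2, the procollagen N-proteinase, from 139, 104 and 185.9 to between 23.1 and 63.4 CPM (−1.89). The stromelysin Mmp10 rose from 1.55, 3.31 and 1.36 to between 12.4 and 21.8 CPM (2.94).

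**Figure D3:**
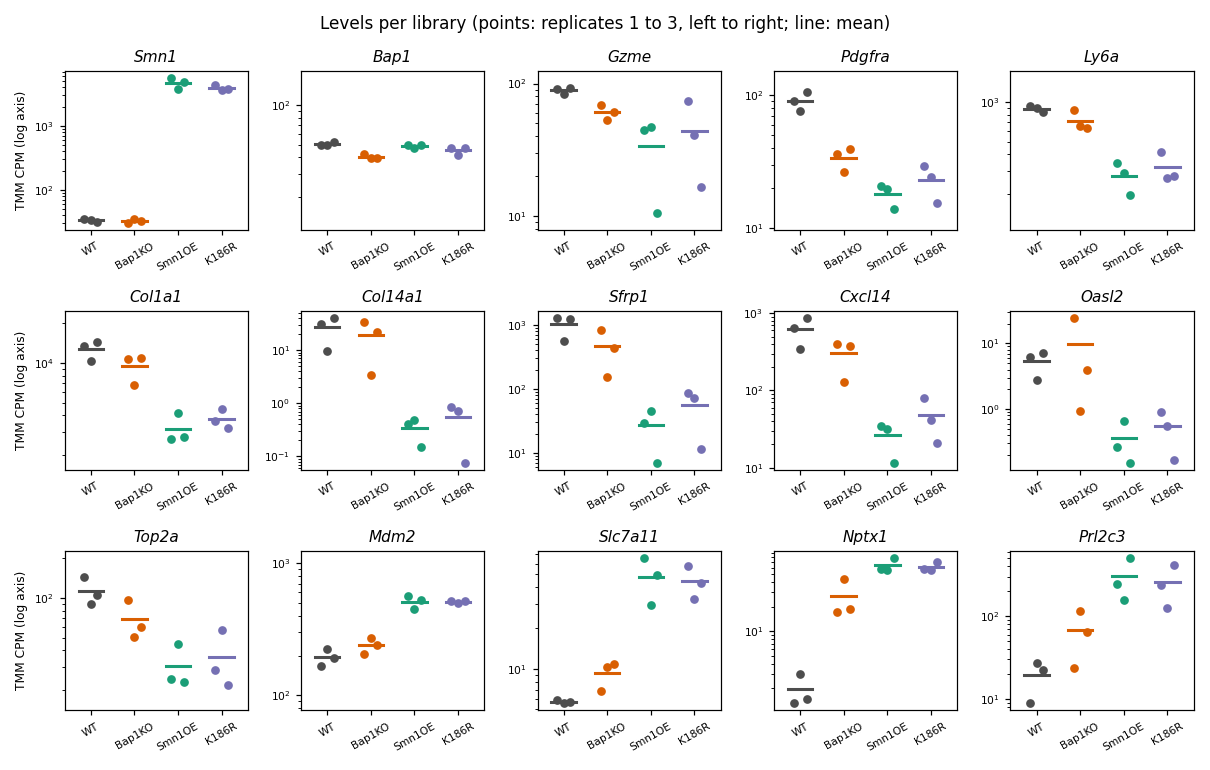
Levels in TMM-scaled CPM on log axes of 15 genes, with the 3 libraries of each group as points in replicate order and the group mean as a line. The WT and SMN libraries are separated for every gene drawn except Bap1; most of these genes were taken among those whose groups did not overlap.

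Of the lists for lineages that FAPs and related mesenchymal cells can enter, that of tenocytes held more called genes than the background (88.9%), while the osteochondrogenic (61.9%), adipogenic (60%) and contractile (56.0%) lists were near its 56.6% and give no result as lists. Of 9 tenocyte genes, 7 fell and 1 rose (median −1.46), with 0 rising without WT replicate 2. The faller Chodl was too low in the SMN libraries to pass the low-count filter there. The gene that rose was the tendon factor Scx (0.67). Fmod, the tendon proteoglycan fibromodulin, fell from 336, 208 and 384 to between 14.6 and 46.0 CPM (−3.53). Comp, cartilage oligomeric matrix protein, fell from 45.3, 22.3 and 52.4 to between 3.36 and 7.01 CPM (−3.18). Fmod, Comp and Thbs4 are also on the matrix glycoprotein list, so their falls are counted in both lists. Osteochondrogenic genes fell in 8 and rose in 5 of 21 (median −0.33), and the number rising went down to 2 without WT replicate 1 and to 3 without WT replicate 2. Among those that rose were Sox9 (0.48) and Runx2 (0.29). The risers Bglap and Bmp2 were too low in WT to pass the low-count filter there, so their direction was given by the filter. Mgp, an inhibitor of calcification, fell from 335, 348 and 300 to between 7.89 and 42.8 CPM (−3.82), and Sp7, the osteoblast factor osterix, from 5.32, 4.49 and 6.18 to between 0.417 and 0.731 CPM (−3.24 ± 0.19, adjusted p = 7e-07). Adipogenic genes fell in 14 and rose in 4 of 30 (median −0.32); 7 rose without WT replicate 3. Cebpd, an early adipogenic factor, fell from 115, 95.02 and 103 to between 14.4 and 39.9 CPM (−1.92), Lpl, lipoprotein lipase, from 215, 93.5 and 176 to between 36.6 and 69.4 CPM (−1.79), and Klf5 rose from 2.13, 2.18 and 2.38 to between 6.66 and 10.3 CPM (1.87). Contractile and TGF-beta response genes fell in 10 and rose in 4 of 25 (median −0.26); Tgfbi, a secreted TGF-beta target, fell from 86.7, 46.4 and 69.4 to between 6.79 and 9.23 CPM (−3.13), and Skil, a repressor of SMAD signalling, rose from 29.1, 33.4 and 37.4 to between 57.6 and 80.5 CPM (1.05).

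Secreted signals of the Wnt and IGF pathways were lower in many cases. Of 34 Wnt pathway genes tested, 24 fell and 5 rose (median −1.44); the number rising was 2 when WT replicate 1 was left out and 3 when replicate 3 of WT or of either SMN group was. Sfrp1, a secreted Wnt antagonist, stood at 1275, 566 and 1234 CPM in WT and between 6.99 and 86.2 CPM, median 37.1, in SMN (−4.71 ± 0.66, adjusted p = 9.89e-05). Its lowest values came from media batch F, and Bap1KO averaged 474 CPM. The antagonists Sfrp2 (−3.48) and Wif1 (−3.10) and the R-spondin receptor Lgr5, from 19.2, 10.0 and 7.96 to between 0.606 and 1.85 CPM (−3.47), fell as well. Of 17 IGF pathway genes, 8 fell and 6 rose (median −0.68). Igfbp4, which binds IGF outside the cell, fell from 931, 737 and 914 to between 122 and 203 CPM (−2.50 ± 0.15, adjusted p = 6.85e-07), and Igfbp2 from 69.2, 209 and 141 to between 18.6 and 44.3 CPM (−2.07). Stc1, a secreted glycoprotein that inhibits the protease of IGF-binding proteins, fell from 21.2, 21.7 and 27.5 to between 0.904 and 4.81 CPM (−3.28).

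Among ligands that act on nerve and synapse, 20 of 44 fell and 7 rose (median −0.29); without WT replicate 1 the number rising was 3. The riser Nrg2 was too low in WT to pass the low-count filter there. Ptn, the heparin-binding growth factor pleiotrophin, fell from 65.2, 18.4 and 14.0 to between 0.764 and 4.90 CPM (−3.46). Nptx1, also on this list and encoding a secreted pentraxin that gathers glutamate receptors at synapses, had, after Smn1, the largest rise among named genes of at least 10 CPM, from 1.32, 3.04 and 1.49 to between 55.5 and 78.1 CPM (5.01 ± 0.40, adjusted p = 2.65e-06). Bap1KO averaged 26.7 CPM of Nptx1, between WT and SMN. Outside the list, Nrcam, a neuronal cell adhesion molecule, rose from 6.37, 18.5 and 16.9 to between 85.3 and 191 CPM (3.19). Also outside it, Slc1a3, a glutamate transporter, fell from 54.1, 34.5 and 38.9 to between 0.540 and 2.03 CPM (−5.15 ± 0.42, adjusted p = 3.14e-06).

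Granzymes are serine proteases of killer lymphocytes, and the Serpinb9 family holds inhibitors of granzyme B in the cytosol. Gzme, the granzyme of the study's title, stood at 90.7, 83.7 and 92.6 CPM in WT and between 10.5 and 74.1 CPM, median 42.7, in SMN (−1.20 ± 0.42, adjusted p = 0.0274). The groups did not overlap, but the SMN libraries were spread widely, the lowest coming from Smn1OE replicate 3, and the adjusted p rose above 0.05 without any single WT library or without Smn1OE_K186R replicate 2 (up to 0.0687). Gzmc fell from 6.89, 2.32 and 5.91 to between 0.189 and 1.20 CPM (−3.02), and Gzmd from 11.95, 8.16 and 14.7 to between 0.659 and 3.85 CPM (−2.20). These genes are near copies in a cluster, so the split of reads among them is uncertain. Of 4 granzymes tested 3 fell and 0 rose, and 1 rose without WT replicate 2. All 7 Serpinb9 family genes were called higher, but Serpinb9c, Serpinb9d, Serpinb9f and Serpinb9g were too low in WT to pass the low-count filter there. Their direction was given by the filter, so the count is no measure of the family. Serpinb9 itself rose by 0.34 and Serpinb9b by 1.52 on the log2 scale. Serpinb9c, Serpinb9d and Serpinb9f had 0 reads in every WT library and averaged 1.06, 1.08 and 0.503 CPM in SMN, at least 23.01-fold, 23.6-fold and 10.9-fold higher than the level that 3 reads in a WT library represent. Serpinb9g stood at 0, 0.0305 and 0.0155 CPM in WT and between 2.47 and 7.71 CPM in SMN. With the 3 genes at 0 reads set to their bound, the median log2 fold change over the 7 was 4.52. That value is the bound of Serpinb9c itself, so the median is no measure of the family either. These genes are near copies of each other, too. Their low Bap1KO means, 0.0102 CPM of Serpinb9f to 0.199 CPM of Serpinb9g among these 4, were above 0.

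Interferon-stimulated genes, which cells switch on through STAT and IRF factors after sensing infection, were low in the SMN libraries. Of 48 tested, 38 fell and 1 rose (0 rose without WT replicate 1 or 2, any Smn1OE library or Smn1OE_K186R replicate 2), with a median log2 fold change of −2.12, and the 6 SMN libraries lay below all 3 WT libraries in 38 genes (background 27.7% of all autosomal genes). Among the falls, Oas1b, Oas3 and Mx2 were too low in the SMN libraries to pass the low-count filter there, so their direction was given by the filter. Many promoters of interferon-stimulated genes carry the interferon-stimulated response element, a pair of GAAA repeats. Promoters are therefore shown of Igtp and Isg15, which hold GAAA, any 2 bases and again GAAA (in capitals), and of Oasl2, the steepest faller, which does not. Igtp and Isg15 were chosen as those that fell most among members with the motif, except that 1 chromosome was left out of the choice. The promoter of Iigp1, which fell by more (−3.23), is not shown. Each sequence spans 250 bases before to 50 after the RefSeq start site, 5′ to 3′ on the gene's strand, at chr11:58199306-58199605 (plus), chr4:156200769-156201068 (minus) and chr5:114896684-114896983 (plus) in GRCm38.p6, a different build from the GRCm39 that the submitters' processing notes name.
Igtp: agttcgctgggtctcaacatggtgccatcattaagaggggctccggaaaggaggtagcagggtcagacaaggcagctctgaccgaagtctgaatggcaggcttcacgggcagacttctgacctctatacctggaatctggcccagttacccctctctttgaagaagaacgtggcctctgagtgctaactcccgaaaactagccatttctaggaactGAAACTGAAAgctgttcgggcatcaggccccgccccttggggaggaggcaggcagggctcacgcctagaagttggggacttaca
Isg15: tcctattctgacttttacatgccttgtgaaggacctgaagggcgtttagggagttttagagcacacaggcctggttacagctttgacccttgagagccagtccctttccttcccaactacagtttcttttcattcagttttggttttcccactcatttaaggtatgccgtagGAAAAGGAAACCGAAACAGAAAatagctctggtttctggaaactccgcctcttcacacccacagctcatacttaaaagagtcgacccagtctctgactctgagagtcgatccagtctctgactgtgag
Oasl2: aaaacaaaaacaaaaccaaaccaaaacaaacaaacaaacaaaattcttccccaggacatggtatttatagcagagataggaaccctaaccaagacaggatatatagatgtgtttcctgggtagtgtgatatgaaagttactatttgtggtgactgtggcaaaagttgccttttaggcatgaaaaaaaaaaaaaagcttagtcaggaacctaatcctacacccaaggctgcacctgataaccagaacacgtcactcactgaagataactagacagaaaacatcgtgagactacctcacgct
In Isg15 3 matches overlap, starting 78, 72 and 66 bases before the start site; in Igtp the single match begins 34 bases before it. Searched on both strands, this spaced repeat was present in a promoter window of 3.99% of all 27025 genes and of 19 of the 36 interferon genes with a RefSeq promoter (52.8%), among them 15 of the 27 that fell. A match is a run of letters, and its absence from a window says nothing about binding.

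Oasl2, an antiviral OAS-like protein, stood at 6.27, 2.79 and 7.26 CPM in WT and between 0.151 and 0.917 CPM, median 0.411, in SMN (−3.58 ± 0.78, adjusted p = 0.00203). Igtp, an interferon-induced GTPase, fell from 4.85, 2.93 and 4.58 to between 0.151 and 0.716 CPM (−3.18 ± 0.65, adjusted p = 0.00134). Isg15, a ubiquitin-like modifier, averaged 13.0 ± 4.45 CPM in WT (SD, n = 3) and 1.79 ± 1.38 CPM in SMN (n = 6; −2.85). Iigp1, a related GTPase, fell from 3.01, 2.09 and 5.71 to between 0.0377 and 0.947 CPM (−3.23, adjusted p = 0.00621), but not with limma-voom and the media batch as a random effect (adjusted p = 0.0808). WT replicate 2 was the lowest WT library in all 3 genes for which single values are given. The list varied most in Bap1KO: its median log2 difference from the WT mean was 1.34, −1.32 and −0.25 in replicates 1 to 3, against −1.25 to −2.52 in the 6 SMN libraries.

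The lists of MHC class I presentation (68.2% called), nucleic acid sensors (83.3%) and complement (77.8%) also held more falls than rises. Of 22 genes of MHC class I presentation 15 fell and 0 rose (median −0.79); Psmb8, an immunoproteasome subunit, fell from 7.57, 5.54 and 5.60 to between 0.246 and 1.18 CPM (−3.03), and the class I gene H2-T23 from 25.2, 25.6 and 33.2 to between 6.49 and 17.4 CPM (−1.41). Class I genes are similar in sequence, which leaves the split of reads among them uncertain. Of 18 sensors of foreign nucleic acid 13 fell and 2 rose (median −1.13). The faller Ifi205 was too low in the SMN libraries, and the riser Aim2 in WT, to pass the low-count filter there. Among those that fell, Ddx58, Ifih1, Dhx58, Zbp1 and Irf7 are also on the interferon list, so these 2 lists are not separate counts. Dhx58, a regulator of RIG-I signalling, fell from 5.34, 3.20 and 6.05 to between 0.814 and 1.41 CPM (−2.17). Of 18 complement genes 13 fell and 1 rose (median −1.57); 0 rose without WT replicate 1 or 3. Serping1, the inhibitor of C1, stood at 39.9, 28.3 and 49.1 CPM in WT and between 0.530 and 5.77 CPM in SMN (−3.70 ± 0.56, adjusted p = 0.000172), and the C1 protease genes C1ra (−3.21) and C1s1 (−2.58) and the component C4b (−2.78) fell too. Cytokine and chemokine genes fell in 16 and rose in 4 of 34 (median −0.76), with 1 rising when WT replicate 1 was left out and 2 when WT replicate 2 or replicate 1 of either SMN group was. At 58.8% called, near the 56.6% of all autosomal genes, they give no result as a list. Cxcl14, a chemokine of stromal cells, stood at 642, 348 and 864 CPM in WT and between 11.5 and 81.0 CPM in SMN (−4.13 ± 0.47, adjusted p = 2.52e-05). The neutrophil attractant Cxcl1 fell from 69.5, 56.9 and 60.4 to between 2.01 and 14.7 CPM (−3.25), and Il1rn, the antagonist of the interleukin 1 receptor, from 33.4, 10.96 and 29.3 to between 0.151 and 1.13 CPM (−5.49). Ptgs2, the inducible cyclooxygenase COX-2, rose instead, from 306, 547 and 492.9 to between 1396 and 1987 CPM (1.84 ± 0.21, adjusted p = 2.38e-05).

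**Figure D4:**
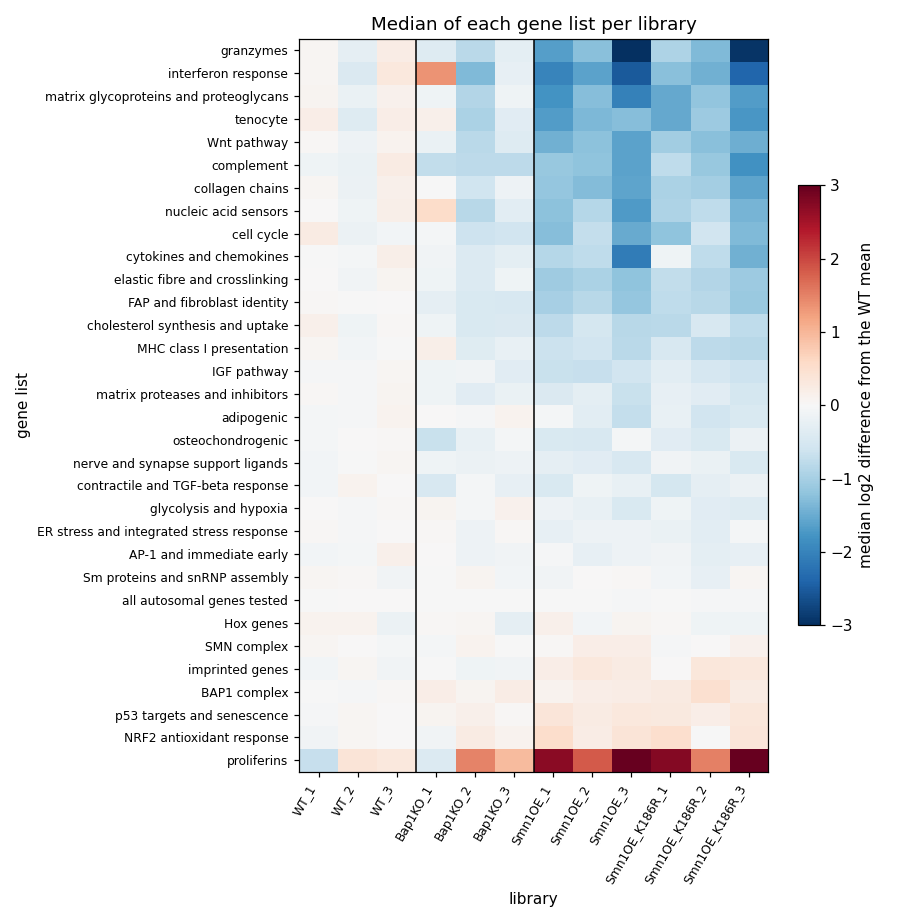
Median log2 difference from the WT mean of each gene list (rows, sorted by the SMN mean) in each of the 12 libraries (columns), blue below and red above the WT mean on a scale cut at 3. The 6 SMN columns are blue for the granzyme, interferon, matrix, Wnt and complement rows, and Bap1KO replicate 1 is red, at 1.34, for the interferon row.

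Genes of DNA replication and mitosis were lower and p53 targets more often higher. Of 45 cell cycle genes 39 fell and 2 rose (median −1.08; the number rising was 0 without WT replicate 1 or without media batch D). Top2a, the topoisomerase of dividing cells, stood at 144, 90.2 and 104 CPM in WT and between 22.1 and 56.7 CPM, median 26.5, in SMN (−1.77 ± 0.30, adjusted p = 0.000374). Aurkb (−1.85), a mitotic kinase, Tk1 (−1.84), thymidine kinase, and Birc5 (−1.78), survivin, fell by like amounts. The SMN libraries differed among themselves: the list's median lay at −0.57 and −0.71 in media batch E and between −1.22 and −1.50 in batches D and F. The letters TTTGAA, the core of the element used by the cell cycle repressor DREAM, were in 41.7% of the 36 cell cycle genes with a promoter sequence and in 20.2% of all genes. Of 27 p53 target and senescence genes 14 rose and 6 fell (median 0.29). Mdm2, the ubiquitin ligase that restrains p53, rose from 168, 224 and 193 to between 448 and 566 CPM (1.39 ± 0.12, adjusted p = 3.43e-06), the apoptosis gene Pmaip1 from 16.96, 23.3 and 13.96 to between 55.5 and 71.3 CPM (1.74), and the p53 effector Perp from 6.43, 12.2 and 9.26 to between 20.5 and 33.9 CPM (1.61). Cdkn2c, an inhibitor of CDK4 and CDK6, fell (−1.70), as did Sesn1 (−1.39), Btg2 (−1.23) and Fas (−0.82) of the same list. A further 7 of its members were not called. Bap1KO averaged 239 CPM of Mdm2 and 68.8 CPM of Top2a.

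Antioxidant genes under the factor NRF2 rose in 16 and fell in 7 of 33 cases (median 0.45), with 4 falling without WT replicate 1 or 3. Slc7a11, the cystine importer, stood at 5.90, 5.55 and 5.68 CPM in WT and between 29.5 and 65.6 CPM, median 46.1, in SMN (3.02 ± 0.27, adjusted p = 5.49e-06). Hmox1, haem oxygenase 1, rose from 565, 795 and 816 to between 1171 and 2271 CPM (1.35), and, outside the list, Sqstm1, the autophagy receptor p62, from 510, 651 and 602 to between 1159 and 2155 CPM (1.55). Sod3, the extracellular superoxide dismutase, fell from 578, 507 and 588 to between 28.2 and 174 CPM (−2.72). The letters TGACNNNGC, the antioxidant response element, were in 39.3% of the 28 list genes with a promoter sequence and in 14.0% of all genes. Of 29 genes of the ER and integrated stress responses, 9 rose and 14 fell (median −0.20); Ddit3, the factor CHOP, rose from 64.0, 73.0 and 52.7 to between 101 and 182 CPM (1.26), Atf3 rose (1.54), and the stress protein gene Nupr1 fell from 106, 116 and 96.6 to between 35.5 and 50.8 CPM (−1.26).

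Cholesterol synthesis and uptake genes fell in 21 and rose in 3 of 28 (median −0.66). Cyp51, lanosterol demethylase, fell from 102, 72.6 and 78.7 to between 26.3 and 40.6 CPM (−1.38), and Mvd, of the mevalonate pathway, from 26.4, 25.2 and 23.4 to between 8.37 and 9.64 CPM (−1.47 ± 0.10, adjusted p = 1.81e-06). The exporter Abcg1, which removes cholesterol from cells, rose from 1.597, 2.87 and 2.46 to between 3.61 and 9.45 CPM (1.56). Glycolysis and hypoxia genes fell in 15 and rose in 3 of 30 (median −0.22); Slc16a3, a lactate exporter, fell from 219, 168 and 177 to between 40.2 and 77.5 CPM (−1.57). Immediate early genes were divided, with 11 of 27 falling and 9 rising (median −0.24). Fos fell from 40.7, 32.7 and 64.6 to between 3.79 and 16.4 CPM (−2.46) and Nr4a1 from 203, 193 and 287 to between 51.2 and 95.01 CPM (−1.66). The MAP kinase phosphatases Dusp5, from 19.1, 24.2 and 20.3 to between 56.3 and 90.5 CPM (1.72), and, outside the list, Dusp4, from 11.6, 22.02 and 16.02 to between 91.4 and 170 CPM (2.90), rose.

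Partners of SMN and BAP1 moved by small amounts. Of 7 autosomal SMN complex genes tested, which include Smn1 itself, 3 rose and 1 fell (57.1% called). Gemin2, which binds SMN directly, fell from 10.6, 9.003 and 9.12 to between 5.73 and 6.89 CPM (−0.63 ± 0.12, adjusted p = 0.000786), and Gemin5, which recognises small nuclear RNAs, rose from 33.9, 33.5 and 33.6 to between 41.0 and 49.0 CPM (0.41). Of 17 genes for Sm proteins and snRNP assembly, 3 rose and 3 fell (35.3% called, below the 56.6% of all autosomal genes); the number falling was 1 when WT replicate 1 or 2 was left out and 5 when WT replicate 3 was. Tgs1, which makes the cap of small nuclear RNAs, rose from 13.3, 15.1 and 15.6 to between 21.8 and 29.2 CPM (0.75). The falls of Snrpf (−0.38) and of Coil, the Cajal body protein (−0.28), each passed the threshold here but not in every alternative. Of 10 BAP1 complex genes 6 rose and 0 fell (median 0.26). Mbd6, a subunit of the BAP1 complex, rose from 32.8, 31.5 and 33.9 to between 50.5 and 85.0 CPM (1.04), and Asxl1, which activates BAP1, from 37.1, 36.2 and 40.0 to between 45.1 and 56.1 CPM (0.37).

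Placental and imprinted genes, and genes of body position, gave mixed results. The 3 proliferins tested, prolactin-related secreted hormones known from placenta and growing fibroblasts, rose (3 of 3, median 2.71). The median is the value of Prl2c5, which stood at 0.152, 0.122 and 0.170 CPM in WT. These levels were too low to pass the low-count filter on the WT libraries alone, so the count and median are no measure of the family. Prl2c3 stood at 8.90, 26.8 and 22.5 CPM in WT and between 127 and 500 CPM in SMN (3.85 ± 0.64, adjusted p = 0.000326); the proliferin genes are near copies, so the split of reads among them is uncertain. Imprinted genes rose in 10 and fell in 5 of 26 (median 0.33). Among the rises, Magel2 and Phlda2 were too low in WT to pass the low-count filter there, so their direction was given by the filter. Cdkn1c, a growth-restraining cell cycle inhibitor, rose from 5.26, 8.29 and 4.02 to between 13.1 and 34.4 CPM (1.88), while Dio3, a thyroid hormone deiodinase gene that is not on the list, fell from 122, 92.8 and 189 to between 0.151 and 20.6 CPM (−4.22). Hox and limb patterning genes rose in 10 and fell in 9 of 37, and 18 did not pass the test; without WT replicate 1, 5 rose and 4 fell, and without WT replicate 2, 6 rose. Tbx5, the forelimb factor, fell from 9.67, 7.52 and 8.33 to between 2.14 and 3.64 CPM (−1.60), Tbx4, its hindlimb counterpart, from 4.79, 5.37 and 4.57 to between 1.37 and 3.16 CPM (−0.95), and Hoxb9 rose from 7.92, 10.4 and 6.36 to between 10.8 and 20.1 CPM (1.00). The cells were pooled from forelimb and hindlimb muscle.

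Other steep changes lay outside these lists or among the epithelial markers. Rragd, a GTPase that brings mTORC1 to lysosomes, rose from 1.11, 2.15 and 1.52 to between 14.1 and 28.001 CPM (3.77), and Cxadr, a tight junction protein and virus receptor, from 1.92, 1.22 and 2.52 to between 13.8 and 22.3 CPM (3.21). Of 10 epithelial markers 7 were tested; Cldn4, Krt8 and Krt18 were called and the other 4 were not, but Cldn4 and Krt8 had no WT reads and passed the low-count filter only through the SMN libraries, so their direction was given by the filter. Cldn4, a claudin of tight junctions, had 0 reads in WT and averaged 1.31 CPM in SMN, at least 28.5-fold higher than the level of 3 reads in a WT library. The keratin gene Krt18 stood at 0.0760, 0.122 and 0.0929 CPM in WT and between 1.04 and 3.33 CPM in SMN (4.25). Its WT levels were too low to pass the low-count filter, so its direction was given by the filter too. Itga11, a collagen receptor of fibroblasts, fell from 65.0, 35.3 and 85.1 to between 1.53 and 6.18 CPM (−4.24), and Gas1, a growth arrest and hedgehog co-receptor gene, from 65.6, 25.1 and 57.6 to between 0.454 and 4.89 CPM (−4.22).

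The 2 SMN groups can be set side by side, each against the same WT libraries. The log2 fold change of Col1a1 was −1.99 in Smn1OE and −1.75 in Smn1OE_K186R, that of Pdgfra −2.33 and −1.99, that of Sfrp1 −5.24 and −4.18, that of Slc7a11 3.07 and 2.96, and that of Hmox1 1.45 and 1.24. For the same genes, Bap1KO minus WT gave −0.43, −1.43, −1.11, 0.71 and 0.71, given without a test. No gene differed between the SMN groups at the threshold, which does not show that the vectors act alike.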

How the data were processed

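RNA-seq gene counts of 12 libraries were used as the authors deposited them: whole-number counts per gene, not normalized, 55335 gene rows and 5 closing rows per library. The submitters' processing notes name STAR 2.6.1 and build GRCm39 beside HTSeq 0.9.1, with cutadapt 1.4.2, CASAVA 1.8.2 and DESeq2; the strand setting and annotation are not given in the sources used here, so overlapping and antisense genes cannot be told apart. Of the gene IDs, 55154 matched GENCODE M21, which gave symbols and chromosomes.

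Here edgeR 4.0.16 (R 4.3.3; TMM scaling, a low-count filter with a minimum count of 10, quasi-likelihood test with 8 residual degrees of freedom) was fitted to all 12 libraries in 4 groups, and the mean of both SMN groups minus WT was tested, 2-sided. P-values were Benjamini-Hochberg adjusted over all 16597 genes tested; a call is an adjusted p under 0.05, and rows of 16034 autosomal genes are reported. The common biological coefficient of variation was 0.179. "Rose" and "fell" mean called. CPM are TMM-scaled counts relative to library size. Closing rows (unassigned and unaligned reads, 11.2 to 14.6% of reads in these libraries) stayed out of library sizes. No replicate pair agreed within sampling noise (chi-square per degree of freedom at least 40.7).

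Members, gene lists and tests were chosen with earlier results of these data known. Named genes were the 12 steepest rises and falls of at least 10 CPM, the 6 largest gains and losses in CPM, up to 4 steepest called members of each list, all among genes whose groups did not overlap (where a list had none, its called members were used), plus Smn1, Bap1, 3 granzymes, Pdgfra and Ly6a; Isg15 was added for its promoter. Some further list members are named only to describe their list. Promoter sequences are RefSeq's (GRCm38.p6). Scripts were tested on simulated data. DESeq2 1.42.0, limma 3.58.1 (voom), other filters, scalings and groupings, and leaving out libraries or media batches were tried as alternatives.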

Additional observations from a re-analysis of the deposited data

Results flagged for a closer look

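Among the 161 named genes, 5 had 1 library among the 6 SMN libraries separated from the rest by a wide gap on the log2 scale; chance alone marks about 1 in 20 such groups. Snrpf, an Sm protein gene, was low in Smn1OE_K186R replicate 2 (46.6 CPM), and Bap1 was lowest in the same library (41.7 CPM). Asxl2, a BAP1 partner, was highest there (34.7 CPM). Comp was high in Smn1OE_K186R replicate 1 (7.01 CPM), and Sfrp2 was low in Smn1OE replicate 2 (0.104 CPM). Reads that aligned outside annotated genes made up at least 2.84% of every SMN library, above the WT maximum of 2.61%, and reads that did not align made up at least 2.82%, above the WT maximum of 1.70%.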

How the results depend on the processing

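Of the 22 alternatives tried for the pooled comparison, the count of autosomal genes called lay between 7601 (without WT replicate 1) and 9371 (DESeq2), against 9078; limma-voom, in which libraries of a media batch were correlated, gave 8553 and the SMN libraries summed by media batch 8445. The count at least 2-fold apart was 2063 in place of 3220 when genes had to reach 1 CPM in 3 libraries, where fewer genes are tested. DESeq2 size factors raised the share of calls that were higher from 46.7% to 50.1%, moving the median log2 fold change from −0.02 to 0.01. Leaving out libraries singly gave a mitochondrial difference of 0.568 to 0.663 percentage points and a difference in reads outside genes of 0.659 to 0.863; without any single WT library p was 0.0714, the smallest that 6 against 2 allow. These permutation p-values also count SMN libraries of a shared media batch as separate. Of 159 named genes called, 150 were called under every alternative, 0 changed sign, and Snrpf, Coil, Gzme, Iigp1, H2-Q4, Zbp1, Hoxa2, Kdr and S100b lost the call in some. Of 1716 list counts compared, 1624 were within 1.5 times the reported count. Replicate numbers are shared between WT and SMN, but the labels put them in different media batches. A fit with the replicate number as a block called 8987 genes; the correlations of same-numbered WT and SMN libraries were −0.03 to −0.19, so the numbers do not pair them, and not every sample correlated best with its own number.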
